A study of Mus musculus with 24 samples.

Results

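Fasted livers that lack Ppara and hepatocyte Bcl6 (DKO) were compared with fasted livers that lack Ppara alone (PparaKO). The difference is called the effect of Bcl6 loss without PPARα below, although other differences between the lines are part of it. The comparison used 12 of the 24 samples of the series, 4 DKO, 4 PparaKO and 4 WT livers, of 20 samples with a column of values, and all 12 came from overnight fasted male C57BL/6 mice. WT mice were Bcl6 fl/fl without Cre. PparaKO mice were Ppara-/- in the whole body, and their labels name neither the floxed Bcl6 allele nor Cre. DKO mice were Ppara-/-;Bcl6 fl/fl; Alb-cre, in which the albumin promoter drives Cre in hepatocytes, so other liver cells keep Bcl6. Fed Bcl6LKO livers (Bcl6 fl/fl; Alb-cre) and fed WT livers, 4 of each, gave the effect of Bcl6 loss with Ppara intact. No label ties a library to its own animal, and every p-value therefore rests on the spread among libraries alone.

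BCL6 is a zinc finger repressor that recruits corepressor complexes to DNA. PPARα is a nuclear receptor activated by fatty acids during a fast, and it switches on genes of fat oxidation and ketone production. In mouse liver BCL6 is also known for its part in male-typical gene expression, and its DNA motif resembles that of STAT5, the factor through which growth hormone acts. The comparison asks which transcripts respond to Bcl6 when PPARα cannot act.

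The 2 genotypes stand in separate tables, each scaled on its own, and the same 4 fasted WT libraries are in both and bridge them. Every value below is a log2 level minus the WT mean of that gene in the same table. A difference is the mean of the 4 DKO values minus the mean of the 4 PparaKO values, on the log2 scale, with its SE. The bridge was checked gene by gene over the 11953 genes tested, of 24443 in the tables. The WT level of a gene shifted between the tables by a median of -0.061, with -0.18 and 0.066 at the 5th and 95th percentiles, and the SD of the shift over the 4 libraries had a median of 0.015. The shift lay more than 0.25 from its median in 373 genes and more than 1 from it in 39. The WT libraries also spread more widely in the DKO table, with a median slope of 1.15, so each difference was computed again with the PparaKO values multiplied by the gene's slope ("scales matched", added after the data were seen). Low levels are drawn together in the deposited values, which understates large differences of rare transcripts.

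Many transcripts differed between fasted DKO and PparaKO livers. With limma's moderated test, 228 genes (1.91% of those tested) were higher and 176 (1.47%) lower in DKO than in PparaKO livers, counting genes with a fold over 2 and an adjusted p under 0.05, and together these 404 called genes were 3.38%. The 4 DKO and 4 PparaKO values did not overlap in 397 of the 404. The call rule itself makes this likely, so the count adds no separate support. With scales matched, 3.33% were called, and 376 of the 404 kept their call and direction. In 179 of the 404 the WT shift lay more than 0.25 from its median, against 373 of all 11953 genes tested. The bridge was thus less tight in called genes than in most others. At the adjusted p alone, the rule used for the lists below, 1489 genes (12.5%) were higher and 1790 (15%) lower, or 10.4% and 12.9% with scales matched. With every library set to an equal total these counts were 1009 and 2956. The median of all differences was -0.0057. The first principal component of the 8 DKO and PparaKO libraries held 71.3% of their variance and separated the genotypes. The second held 13.9% and set DKO replicates 1 and 2 apart from DKO replicates 3 and 4.

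Among the deleted genes, Bcl6 (GRCm38.p6, chr16:23965050-23988866) had values of 0.24, -0.088, -0.21 and 0.52 in PparaKO replicates 1 to 4 and -0.32, 0.0065, -0.44 and -0.81 in DKO replicates 1 to 4. The groups overlapped, and the difference of -0.51 (SE 0.40, adjusted p = 0.384) did not pass the test. The level of Bcl6 therefore gave no check of the DKO labels, which were used as given. Ppara (chr15:85734910-85806851) lay between -1.12 and -0.95 in PparaKO and between -2.45 and -1.45 in DKO libraries, and it fell by 0.73 (SE 0.17, adjusted p = 0.0056). Of its relatives, Ppard rose by 0.34 (SE 0.093, adjusted p = 0.0153) but no longer passed with equal totals or without DKO replicates 3 and 4, and Pparg at 0.14 (SE 0.10) did not pass.

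Many of the transcripts that moved furthest belong to sex-biased liver expression, and the sequence at the start of 1 leading gene in each direction is shown for context. Each window runs from 250 bases before to 50 after the start (RefSeq, GRCm38.p6). They are the genes with the largest difference in each direction whose window holds TTCNNNGAA, the core shared by BCL6 and STAT5 motifs, or AGGNCANAGGNCA, a direct repeat of the kind bound by PPARα with RXR, on either strand. Capitals mark the match. A1bg lies at chr15:60921221-60921520 on the minus strand and Cyp2d9 at chr15:82452127-82452426 on the plus strand.
A1bg: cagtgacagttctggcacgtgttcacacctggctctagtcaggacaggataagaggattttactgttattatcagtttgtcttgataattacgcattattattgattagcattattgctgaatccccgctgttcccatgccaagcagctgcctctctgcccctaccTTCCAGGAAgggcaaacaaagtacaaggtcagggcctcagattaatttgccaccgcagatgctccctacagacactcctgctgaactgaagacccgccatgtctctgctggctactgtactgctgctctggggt
Cyp2d9: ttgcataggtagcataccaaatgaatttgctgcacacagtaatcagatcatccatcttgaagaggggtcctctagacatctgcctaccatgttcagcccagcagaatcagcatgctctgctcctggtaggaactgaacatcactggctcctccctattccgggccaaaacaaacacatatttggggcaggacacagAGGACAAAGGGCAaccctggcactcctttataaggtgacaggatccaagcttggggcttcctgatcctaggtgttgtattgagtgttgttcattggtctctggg
The match to TTCNNNGAA begins 84 bases before the start of A1bg, and that to the repeat 54 bases before the start of Cyp2d9. Windows were found for 9506 of the genes tested. TTCNNNGAA was in 7.1% of them, in 5.88% of 170 windows of genes called higher and in 5.22% of 134 of genes called lower. The repeat was in 0.305% of all windows, in 3 of the 170 and in 1 of the 134. A match describes letters, not a binding site.

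Female-biased genes rose. Of 38 listed, 28 passed the filter on low levels. That filter averages all columns, so a gene low in WT and PparaKO can pass through its DKO values alone. Of the 28 tested, 24 were higher and 0 lower (median 2.50), a count that this filter favours. A1bg, a secreted plasma glycoprotein, had values of -0.10, 0.13, 0.034 and -0.093 in PparaKO replicates 1 to 4 and 8.16, 7.79, 7.54 and 7.76 in DKO replicates 1 to 4. Every DKO library lay far above every PparaKO library, and the difference was 7.82 (SE 0.11, adjusted p = 2.32e-15). Cyp2a4, a steroid-hydroxylating P450, lay between -0.11 and 0.46 in PparaKO and between 7.38 and 8.45 in DKO livers, and rose by 7.75 (SE 0.20). The P450s Cyp3a44, Cyp3a16 and Cyp2b9 differed by 6.67 (SE 0.070), 6.01 (SE 0.089) and 4.38 (SE 0.32). Sult2a1, which sulfates steroids and bile acids, rose by 6.48 (SE 0.086). The groups overlapped in none of these genes, as the rule that named them required.

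Of the other genes with large increases, Prlr, Hamp2, Slc22a26 and Cyp2b10 are also on the female-biased list, Serpina6 is on the list of hepatokines and carriers, and Dnah11 and Rap1gap2 are on no list. Serpina6, the carrier of corticosteroids in plasma, had values of -1.20, -1.25, -1.77 and -1.47 in PparaKO and 5.86, 5.69, 5.75 and 5.38 in DKO replicates 1 to 4. It was below WT in every PparaKO library and above WT in every DKO library, a difference of 7.09 (SE 0.16, adjusted p = 5.79e-13). Prlr, the prolactin receptor, moved in the same way, from values between -1.27 and -0.86 to values between 3.59 and 3.81, and rose by 4.69 (SE 0.087). Dnah11, a dynein of cilia, rose by 5.24 (SE 0.11), and Hamp2, a relative of the iron hormone hepcidin, rose by 5.72 (SE 0.13). Large increases were also seen in the organic anion transporter Slc22a26 at 4.90 (SE 0.14), the xenobiotic-induced P450 Cyp2b10 at 4.88 (SE 0.34) and Rap1gap2, which switches off the GTPase Rap1, at 4.19 (SE 0.15).

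Male-biased genes fell. Of 35 listed, 32 were tested, of which 0 were higher and 28 lower (median -2.51). Mup11, one of the major urinary proteins that carry pheromones, had values of 0.93, 1.03, 0.54 and 0.46 in PparaKO and -4.16, -4.78, -4.24 and -5.64 in DKO replicates 1 to 4, above WT in every PparaKO library and below it in every DKO library. It fell by 5.44 (SE 0.31, adjusted p = 1.95e-08). Mup7, Mup14, Mup21, Mup17, Mup9 and Mup20 differed by -4.63 (SE 0.29), -4.19 (SE 0.32), -3.88 (SE 0.21), -3.49 (SE 0.53), -3.41 (SE 0.53) and -3.31 (SE 0.17). Gm2083 differed by -3.67 (SE 0.43). Mup genes are near-identical copies among which reads can be split, so a single member is an uncertain measurement. Cyp2d9, a male-typical steroid hydroxylase, had values of -0.071, 0.051, -0.16 and 0.072 in PparaKO and -4.49, -4.23, -4.17 and -5.24 in DKO replicates 1 to 4, and it fell by 4.51 (SE 0.18, adjusted p = 4.57e-10). All DKO libraries lay below all PparaKO libraries. Elovl3, an elongase of very long chain fatty acids, fell by 4.26 (SE 0.17), and Serpina1e, an alpha-1-antitrypsin, fell by 4.54 (SE 0.20). Cyp4a12a, which hydroxylates arachidonic acid, fell by 4.99 (SE 0.30), and its close copy Cyp4a12b fell by 3.22 (SE 0.10). Selenbp2, a selenium-binding protein, was above WT in every PparaKO and below it in every DKO library, and fell by 4.10 (SE 0.30). Moxd1, a monooxygenase-like protein, lay between 3.43 and 4.76 in PparaKO and between -1.38 and 1.36 in DKO livers and fell by 3.89 (SE 0.75, adjusted p = 0.00161), a call lost when the WT columns of both tables were treated as separate samples.

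**Figure D1:**
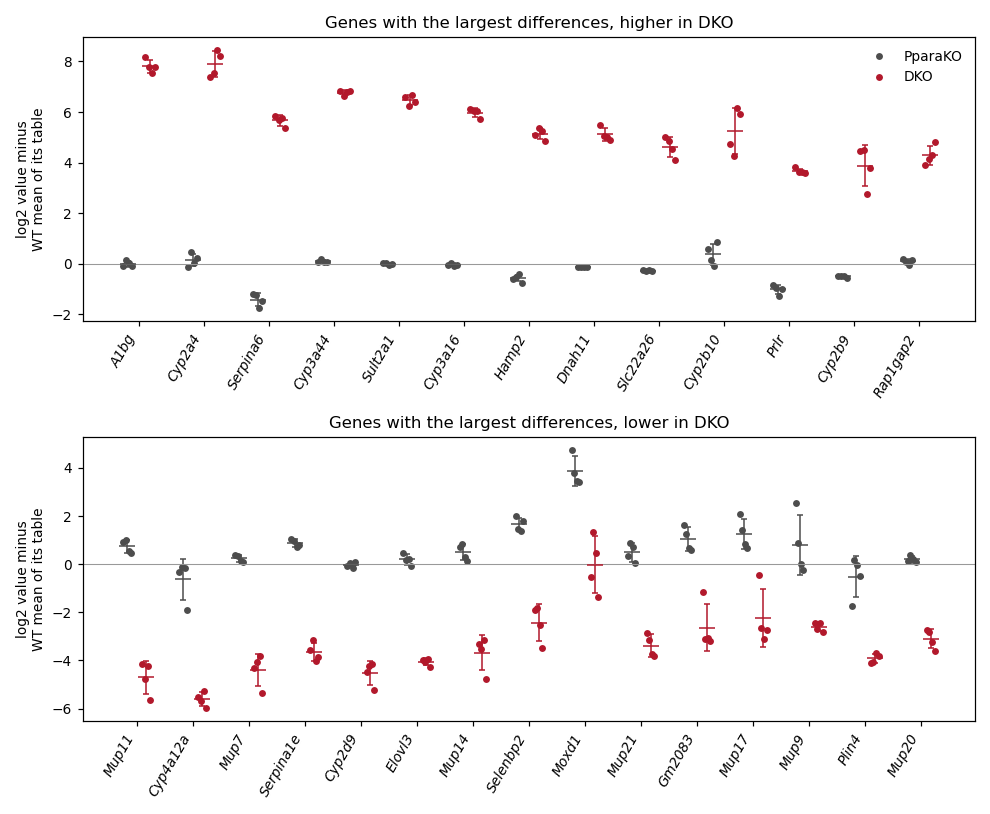
Log2 value minus the WT mean of its table (vertical axis) for genes with the largest differences, higher in DKO (top) and lower in DKO (bottom). Points are the 4 libraries of a genotype, horizontal marks their mean and bars their SD. The genes were chosen for DKO and PparaKO points that do not overlap, and A1bg separates them most, by 7.82.

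Single genes of growth hormone signalling moved. Of 16 tested, 4 were higher and 1 lower (median 0.18), where 12.5% of all genes tested were higher and 15% lower. With counts this small, the list as a whole is not read as a result. Ghr, the growth hormone receptor, had values of -0.085, -0.18, -0.55 and -0.64 in PparaKO and 2.24, 2.05, 2.13 and 1.81 in DKO replicates 1 to 4. It was higher in every DKO library, by 5.35-fold (log2 difference 2.42, SE 0.13, adjusted p = 6.91e-09). Socs2, a STAT5 target that restrains the receptor, rose by 2.07 (SE 0.18), and Igfbp2, a binding protein of insulin-like growth factors, rose by 1.10 (SE 0.19). Igf1, the growth factor that liver secretes in response to growth hormone, fell by 0.59 (SE 0.10, adjusted p = 0.000564).

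Fat oxidation genes did not move together. The study measured a panel of transcripts by qPCR, and since the panel is the study's own choice, it is no independent evidence of direction. Of its 22 tested, 13 were higher and 1 lower (median 0.63). Acss3, an acyl-CoA synthetase of mitochondria, had values of -2.33, -2.48, -2.56 and -2.41 in PparaKO and -0.054, -0.086, -0.048 and -0.45 in DKO replicates 1 to 4. It was well below WT in PparaKO livers and close to WT in DKO livers, a 4.87-fold difference (log2 difference 2.28, SE 0.10, adjusted p = 1.2e-09). Abcd2, a peroxisomal importer of very long chain fatty acids, had values of -2.34, -2.21, -2.58 and -2.49 in PparaKO and -0.32, -0.28, -0.87 and -1.02 in DKO replicates 1 to 4, and rose by 1.78 (SE 0.20). Acot3, a peroxisomal thioesterase, lay between -2.37 and -1.54 in PparaKO and between -1.01 and 0.81 in DKO livers, without overlap, and rose by 1.91 (SE 0.35, adjusted p = 0.00103). Its 4 DKO libraries spread more than those of Acss3. Cyp4a31, a fatty acid hydroxylase, rose by 1.39 (SE 0.21), Abhd2, a lipase, rose by 1.16 (SE 0.23), and Vldlr, a lipoprotein receptor, rose by 1.14 (SE 0.21). Smaller increases were those of the thioesterases Acot2 at 0.87 (SE 0.17) and Acot4 at 0.69 (SE 0.15), the fatty acid transporter Cd36 at 0.85 (SE 0.13), the isocitrate dehydrogenase Idh2 at 0.68 (SE 0.089) and the fatty aldehyde dehydrogenase Aldh3a2 at 0.65 (SE 0.13). The 1 that fell was Acnat2, a peroxisomal acyltransferase, at -0.54 (SE 0.15), a call lost with the WT columns as separate samples.

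Fgf21, a hormone that liver secretes during a fast, had values of -0.91, -0.93, -1.06 and -1.02 in PparaKO and -0.29, -0.14, -0.71 and -0.38 in DKO replicates 1 to 4 and rose by 0.60 (SE 0.17, adjusted p = 0.0146). It stayed below WT in every DKO library, and without DKO replicates 1 and 2, left out after the data were seen, the call was lost. The peroxisomal enzyme Ehhadh at -0.10 (SE 0.16), the mitochondrial dehydrogenases Acadvl at -0.0092 (SE 0.061) and Hadh at 0.21 (SE 0.15), and Acot1 at 0.060 (SE 0.20) did not pass. Nor did Bdh1 at -0.49 (SE 0.20) and Ucp2 at 0.22 (SE 0.12). Of the 10 genes of ketone production and transport tested, 5 were higher and 0 lower (median 0.42), among them the transporters Slc16a6 at 2.97 (SE 0.25) and Slc16a5 at 1.59 (SE 0.22).

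The omega-hydroxylases that fell most without Ppara were lower still in DKO livers. Cyp4a14 had values of -6.25, -5.96, -6.01 and -6.35 in PparaKO and -8.96, -9.13, -8.82 and -8.70 in DKO replicates 1 to 4, a further 6.77-fold drop (log2 difference -2.76, SE 0.14, adjusted p = 3.16e-09). Cyp4a10 had values of -5.52, -5.01, -5.11 and -4.97 in PparaKO and -7.55, -7.86, -7.22 and -7.39 in DKO replicates 1 to 4 and fell by 2.35 (SE 0.15, adjusted p = 6.3e-08). In neither did the groups overlap. Of 12 omega-hydroxylation genes tested, 2 were higher and 8 lower (median -0.47). Among other PPAR targets, 4 of 19 were higher and 10 lower. The pantetheinases Vnn1 and Vnn3 differed by -0.78 (SE 0.14) and 0.81 (SE 0.071), and Pdk4, which restrains glucose oxidation, by 0.89 (SE 0.11). Vnn1 was at a mean of -4.07 in PparaKO and -4.84 in DKO livers. Differences of genes far from WT, such as Cyp4a14, Cyp4a10 and Vnn1, include the difference in scale, so part of each of these drops can be scale. In 188 genes PparaKO livers lay more than 1 from WT either way. The median ratio of their DKO to their PparaKO value was 1.11, and their median slope was also 1.11. With scales matched, 2 omega-hydroxylation genes were higher and 8 lower (median -0.46).

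Mitochondrial and peroxisomal oxidation genes mostly fell where they moved. Of 21 mitochondrial beta-oxidation genes tested, 0 were higher and 8 lower (median -0.20), and with scales matched 4 were lower, against 15 with equal totals. Acad11, Eci1 and Acadm, the last the medium-chain acyl-CoA dehydrogenase, differed by -0.54 (SE 0.070), -0.49 (SE 0.079) and -0.48 (SE 0.095). Of 26 peroxisomal genes tested, 2 were higher and 14 lower (median -0.35). Acaa1b, a thiolase, lay between -3.50 and -2.44 in PparaKO and between -5.71 and -4.81 in DKO livers and fell by 2.26 (SE 0.23). Scp2, which carries sterols and also yields a thiolase, was above WT in every PparaKO and below WT in every DKO library and fell by 2.06 (SE 0.10, adjusted p = 2.46e-09). Nudt7, which hydrolyses CoA, fell by 1.53 (SE 0.14), and Phyh, which starts the breakdown of phytanic acid, fell by 1.05 (SE 0.10). Of the thioesterases and acyltransferases 4 of 14 were higher and 3 lower (4 and 6 with equal totals), with Baat, which conjugates bile acids, at -0.43 (SE 0.065) and Acot6 at 0.77 (SE 0.091).

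Lipid storage genes moved in both directions, where 12.5% of all genes tested were higher and 15% lower. Of 20 genes of lipid droplets and lipases tested, 4 were higher and 8 lower (median -0.23). Plin4, which coats lipid droplets, had values of -1.72, 0.18, -0.044 and -0.51 in PparaKO and -4.09, -4.06, -3.70 and -3.82 in DKO replicates 1 to 4 and fell by 3.39 (SE 0.30, adjusted p = 1.51e-06). All DKO libraries lay below all PparaKO libraries, of which replicate 1 was the lowest. Plin5 fell by 0.80 (SE 0.12), the hepatic lipase Lipc fell by 1.80 (SE 0.11), and the droplet protein Hsd17b13 fell by 1.29 (SE 0.10). Of 19 genes of fatty acid uptake 2 were higher and 4 lower, the latter including Slc27a2, an acyl-CoA synthetase that takes up fatty acids, at -0.65 (SE 0.12). Of 26 genes of fatty acid synthesis 5 were higher and 9 lower, with the elongase Elovl6 at -1.05 (SE 0.15), malic enzyme Me1 at -0.99 (SE 0.17) and the lipogenic regulator Thrsp at 0.94 (SE 0.17). Of 22 apolipoprotein genes 5 were higher and 4 lower (5 and 6 with equal totals), with Apoc2, the cofactor of lipoprotein lipase, at 0.99 (SE 0.10) and the cholesterol exporter Abca1 at 0.64 (SE 0.11).

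**Figure D2:**
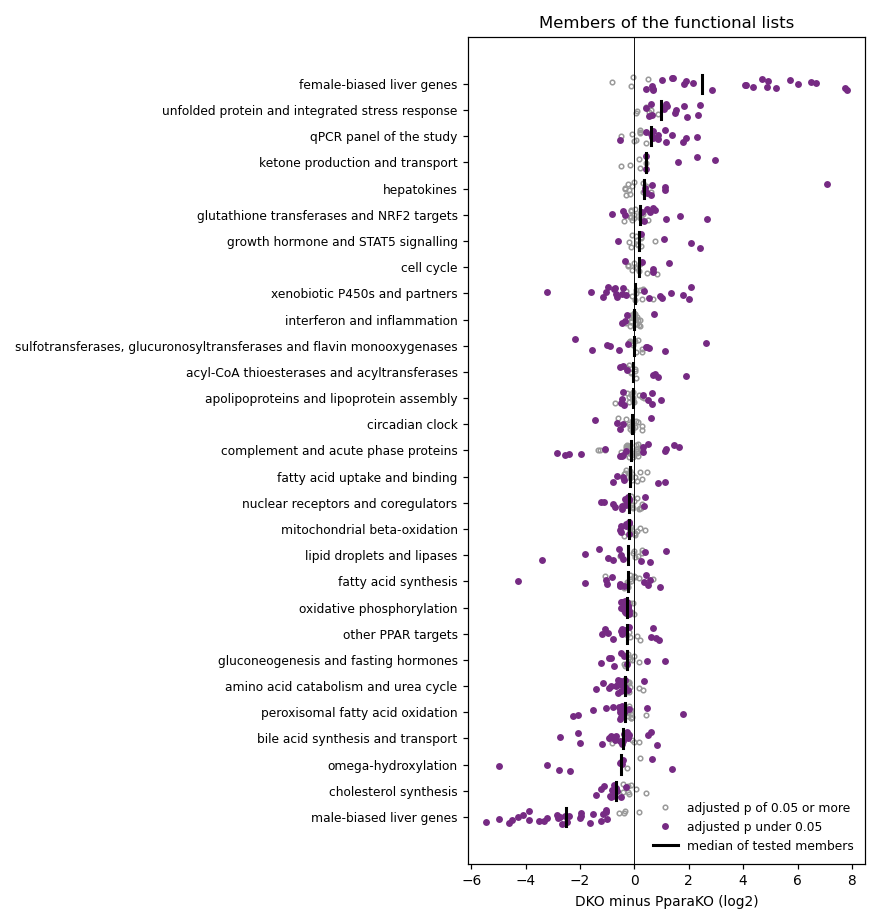
Difference of DKO minus PparaKO on the log2 scale (horizontal axis) of the tested members of each functional list (vertical axis). Filled points have an adjusted p under 0.05, open points have not, and a black bar is the median of a list, highest for female-biased genes at 2.50 and lowest for male-biased genes at -2.51.

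Cholesterol synthesis genes were lower or did not pass. Of 25 tested, 0 were higher and 13 lower (median -0.67). Acat2 had values of -0.25, -0.46, -0.37 and -0.59 in PparaKO and -0.94, -0.97, -1.29 and -1.49 in DKO replicates 1 to 4 and fell by 0.76 (SE 0.12, adjusted p = 0.000499), and Dhcr7 fell by 1.11 (SE 0.25) and Lss fell by 0.83 (SE 0.19), all 3 of them enzymes of the pathway. Without DKO replicates 3 and 4, 3 of 25 were lower, and without DKO replicates 1 and 2 18 were. With the WT columns as separate samples 3 were lower.

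Bile acid, amino acid and glucose genes were more often lower than higher. Of 25 bile acid genes tested, 3 were higher and 15 lower (median -0.43). The transporters Slco1a1, Abcc3 and Slc10a1 differed by -2.73 (SE 0.25), -2.08 (SE 0.15) and -0.94 (SE 0.087), and Cyp7b1, an oxysterol hydroxylase, fell by 1.99 (SE 0.17). Of 28 amino acid genes tested, 1 was higher and 15 lower (median -0.34). Glul, the glutamine synthetase of hepatocytes near the central vein, fell by 1.41 (SE 0.13), Aass, which degrades lysine, fell by 1.14 (SE 0.18), and Kmo, of tryptophan breakdown, was at -0.49 (SE 0.077). Of 19 gluconeogenic and fasting hormone genes tested, 2 were higher and 7 lower (median -0.29). Pck1, which commits carbon to gluconeogenesis, fell by 0.74 (SE 0.13), Sds, which makes pyruvate from serine, fell by 0.85 (SE 0.14), and the glucagon receptor Gcgr was at -0.37 (SE 0.081). Of 28 oxidative phosphorylation genes tested, 0 were higher and 23 lower (median -0.28), and with scales matched 17 were lower. The subunits Cox7a2, Sdhd and Ndufv2 differed by -0.48 (SE 0.067), -0.49 (SE 0.069) and -0.37 (SE 0.063).

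Nuclear receptors and coregulators were more often lower than higher, and most clock and cell cycle genes did not pass. Of 29 nuclear receptors and coregulators tested, 2 were higher and 15 lower (median -0.19). Nr1h4, the bile acid receptor, fell by 0.71 (SE 0.069), Rxra, the partner of many nuclear receptors, fell by 0.46 (SE 0.082), and the coactivators Ppargc1a and Ppargc1b differed by -1.23 (SE 0.16) and -1.13 (SE 0.14). Of 19 clock genes 1 was higher and 4 lower, among those named Hlf at -0.63 (SE 0.087) and Tef at -0.42 (SE 0.083), both PAR bZIP factors, and Bhlhe41, a clock repressor, at 0.62 (SE 0.088). Of 15 cell cycle genes 4 were higher and 1 lower, with the inhibitor Cdkn1a at 1.27 (SE 0.18) and the cyclins Ccne2 at 0.70 (SE 0.12) and Ccnd1 at 0.69 (SE 0.14).

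Detoxification and secreted protein genes moved in both directions, where 12.5% of all genes tested were higher and 15% lower. Of 29 xenobiotic P450s and partners 8 were higher and 12 lower. Cyp3a11, a major drug-metabolising P450, fell by 3.21 (SE 0.26), Cyp2e1, which oxidises ethanol, fell by 1.60 (SE 0.13), and Aldh1a7 rose by 2.06 (SE 0.17). Of 20 sulfotransferases, glucuronosyltransferases and flavin monooxygenases 5 were higher and 6 lower, with Fmo5 at -2.17 (SE 0.19) and Sult1c2 at 1.12 (SE 0.10). Of 26 glutathione transferases and NRF2 targets 9 were higher and 3 lower, with the transferases Gstm3 at 2.65 (SE 0.42), Gstt3 at 1.68 (SE 0.17) and Gstm2 at 1.15 (SE 0.15). Of 41 complement and acute phase genes 7 were higher and 9 lower. C6, C8a, C8b and C9, parts of the membrane attack complex, differed by -2.54 (SE 0.17), -2.40 (SE 0.14), -1.96 (SE 0.092) and -2.85 (SE 0.22). Of 20 hepatokine and carrier genes 8 were higher and 0 lower, and 4 were higher with scales matched. Angptl6, a secreted angiopoietin-like protein, was at 0.45 (SE 0.092).

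Stress response genes were higher in DKO livers, and unequally among the 4 libraries. Of the unfolded protein and integrated stress response genes 14 of 20 were higher and 0 lower (median 0.97). The median of the members over WT was 0.42 and 0.62 in DKO replicates 1 and 2, 1.70 and 2.37 in DKO replicates 3 and 4, and 0.039 to 0.31 in the PparaKO libraries. Ddit3, the stress factor also called CHOP, had values of -0.21, 0.14, 0.051 and 0.18 in PparaKO and 1.12, 1.86, 2.50 and 4.08 in DKO replicates 1 to 4 and rose by 2.35 (SE 0.43, adjusted p = 0.00103). Creld2, a protein of the endoplasmic reticulum, had values of -0.19, 0.11, 0.58 and 0.18 in PparaKO and 1.09, 1.36, 3.66 and 4.16 in DKO replicates 1 to 4 and rose by 2.40 (SE 0.54, adjusted p = 0.00441). In both genes every DKO library was above every PparaKO library, and DKO replicates 3 and 4 were the highest. Trib3, a pseudokinase induced by stress, rose by 1.49 (SE 0.33), and Atf5, a transcription factor of the response, rose by 0.66 (SE 0.10). The chaperone Hspa5 rose by 1.51 (SE 0.41), whereas Herpud1, of protein disposal from the endoplasmic reticulum, was at 0.41 (SE 0.44) and did not pass. Without DKO replicates 3 and 4, 9 of the 20 were higher (median 0.28), and without DKO replicates 1 and 2 18 were (median 1.86), both chosen after the data were seen. With the WT columns as separate samples 6 were higher. The labels name nothing that sets these pairs of DKO libraries apart.

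**Figure D3:**
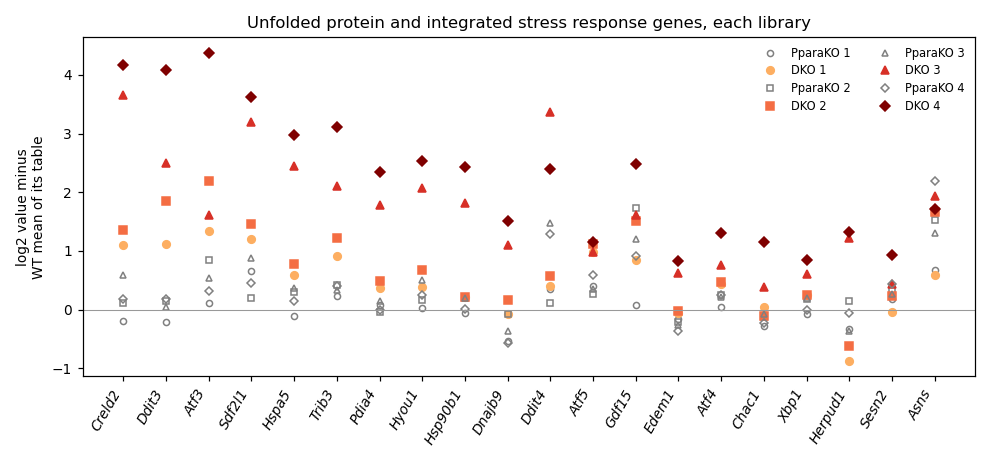
Log2 value minus the WT mean of its table (vertical axis) for the 20 tested genes of the unfolded protein and integrated stress responses (horizontal axis), with open grey symbols for the 4 PparaKO libraries and filled symbols for the 4 DKO libraries. DKO replicates 3 and 4 lie above DKO replicates 1 and 2 for Ddit3, Creld2 and Hspa5.

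Most markers of other cell types did not pass the test. Of the macrophage markers 1 of 15 was higher and 0 lower, and their summed log2 level over WT was 0.057 to 0.54 in PparaKO and -0.19 to 0.37 in DKO libraries. Of the stellate cell and fibroblast markers 2 of 14 were higher and 0 lower, with summed levels of -0.067 to 0.0070 and -0.0024 to 0.30. Of the sinusoidal endothelial markers 2 of 14 were higher and 0 lower, with summed levels of 0.019 to 0.10 and 0.081 to 0.24. Of the erythroid markers 0 of 10 were higher and 1, Alas2, lower at -0.79 (SE 0.13), with a median of -0.53 and summed levels of -1.08 to 0.37 and -1.07 to -0.60. Only 3 of 10 cholangiocyte markers, 2 of 14 lymphocyte markers and 3 of 10 neutrophil markers passed the filter on low levels, which Krt19, Cd3e and Ly6g did not, and no listed marker was at 0 in all libraries. Of the cholangiocyte markers 1 was lower, Sox9 at -1.16 (SE 0.17), of the lymphocyte markers 1 was higher, Cd79b at 0.36 (SE 0.080), and of the neutrophil markers 0. Of interferon and inflammation genes 1 of 23 was higher and 3 lower. The part of cell composition in the differences was not tested, and in bulk tissue fewer cells of a type and less RNA per cell cannot be told apart.

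Hepatocyte markers moved in both directions, with 4 of 15 higher and 6 lower (median -0.21). Their summed levels were -0.16 to -0.013 in PparaKO and 0.46 to 0.67 in DKO libraries, but a summed level follows its most abundant members. The median of the members over WT was 0.0092 to 0.076 in PparaKO and -0.15 to 0.047 in DKO libraries. Alb, which encodes albumin and whose promoter drives Cre in DKO mice, rose by 1.73 (SE 0.23, adjusted p = 9e-05), a call lost with quantile normalization. Its share of the back-transformed total of a library was 2.53% to 4.28% in PparaKO and 11.4% to 13.1% in DKO livers. The same WT libraries stood at 4.71% to 6.02% where scaled with PparaKO and at 5.25% to 6.79% where scaled with DKO. These are totals of the deposited values, not of reads. Ttr, another secreted carrier, fell by 0.79 (SE 0.11).

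Genes near Ppara, Bcl6 and Alb were counted because DNA that flanks an engineered allele can differ between the lines. Within 5 Mb of Ppara, 8 of 94 tested genes were called higher and 2 lower at a fold over 2, against 1.91% higher and 1.47% lower of all genes tested. They include Cyp2d9, Creld2 and Cerk, a ceramide kinase at 2.01 (SE 0.10). Within 5 Mb of Bcl6, 0 of 50 were higher and 1, Il1rap, an interleukin receptor subunit, lower at -1.35 (SE 0.089). Within 5 Mb of Alb, 2 of 51 were higher and 2 lower. Near Bcl6, where only the DKO labels name an engineered allele, flanking DNA and the loss of Bcl6 cannot be told apart. The labels name Cre under the albumin promoter but not where in the genome it lies. The count near Alb therefore need not concern an engineered allele. DKO and PparaKO mice are both Ppara-/-, so the Ppara allele itself does not differ between them. Whether the DNA around it differs was not tested.

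The response was next set beside that to Bcl6 loss in fed liver with Ppara intact, which shares no library with it. Of 11814 genes tested in both, 398 were called in the fasted Ppara-null livers and 450 in the fed livers, where 4.23% of all genes tested were called. The overlap was 279 genes, 70.1% of the former list and 62% of the latter, with 160 higher in both, 118 lower in both and 1 of opposite sign. Across the 11814 genes Pearson's r was 0.835 and Spearman's rho 0.64, a description over genes, which are not independent. Food and Ppara differ together between these settings and cannot be told apart.

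The difference of these effects was tested directly with limma. It was called in 124 of 12001 genes (1.03%), of which 63 (0.525%) were higher and 61 (0.508%) lower in the fasted Ppara-null setting, or 99 and 46 with equal totals. With scales matched 0.817% were called, and 79 of the 124 kept their call and direction. Of 111 called genes with both effects measured, 48 had the same sign and a smaller effect in the fasted Ppara-null liver, 21 the same sign and a larger one, and 42 opposite signs. Signs were counted whether or not either effect passed its own test. Small effects are thus included, such as Ddit3 at -0.063 in fed liver. Among genes called in both settings 1 had opposite signs. Cyp4a10 rose by 1.94 (SE 0.45) on Bcl6 loss in fed liver and fell by 2.35 without Ppara, a difference of effects of -4.29 (SE 0.50, adjusted p = 2.84e-05). Cyp4a14, at 1.12 (SE 0.85) in fed liver, had a difference of effects of -3.88 (SE 0.89, adjusted p = 0.0156). Vnn1 rose by 1.54 in fed liver, with a difference of effects of -2.32 (SE 0.31). Plin4 fell in both settings, by 0.89 in fed liver, with a difference of effects of -2.50 (SE 0.41). Apoa4, an apolipoprotein, had one of -2.65 (SE 0.39), and Pnpla3, a lipase of lipid droplets, one of -2.76 (SE 0.33). Pnpla3 rose by 3.13 (SE 0.30) in fed liver. It did not pass the filter on low levels for DKO against PparaKO and has no tested value there. Prom1, a surface protein of progenitor cells, at -2.34 (SE 0.21) and Cux2, a female-biased repressor, at -2.32 (SE 0.35) rose in both settings and more in fed liver.

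Within the qPCR panel 0 differences of effects were higher and 8 lower at the adjusted p, against 2.42% and 2.54% of all genes. Acot3 rose by 4.66 (SE 0.23) in fed and by 1.91 in fasted Ppara-null liver, a difference of -2.74 (SE 0.47, adjusted p = 0.00135). The other members with a smaller positive value in fasted Ppara-null than in fed liver were Cyp4a31 at -1.84 (SE 0.30), Acot4 at -1.79 (SE 0.23), Ucp2 at -1.61 (SE 0.15), Abhd2 at -1.49 (SE 0.28), Cd36 at -1.17 (SE 0.18) and Idh2 at -0.63 (SE 0.13). Acnat2 rose by 1.22 (SE 0.15) in fed liver and fell in DKO livers, a difference of effects of -1.76 (SE 0.23). With scales matched the call for Cyp4a31 was lost (adjusted p = 0.068). Acss3 at 0.40 (SE 0.18, adjusted p = 0.217), Acot2 at 0.030 (SE 0.25) and Vldlr at 0.36 (SE 0.31) did not pass, which does not show that the effects were equal. With scales matched the adjusted p was 0.0261 for Acss3.

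**Figure D4:**
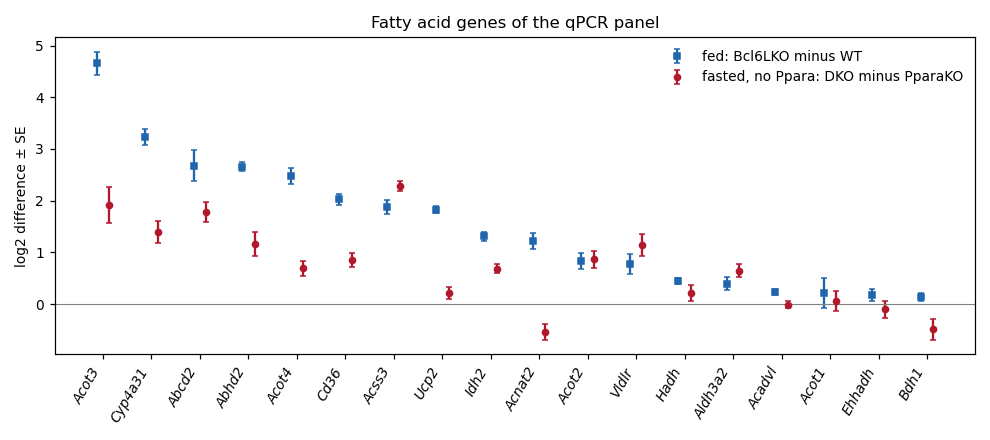
Log2 difference with its SE (vertical axis) for transcripts of the qPCR panel measured in both settings (horizontal axis), in fed liver (Bcl6LKO minus WT, squares) and in fasted Ppara-null liver (DKO minus PparaKO, circles). Acot3 stands at 4.66 in fed and 1.91 in fasted Ppara-null liver, and Acss3 at 1.88 and 2.28.

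Sex-biased genes that passed the test in both settings moved in the same direction in both. In fed livers 25 of the same 28 female-biased genes that passed the filter were higher and 0 lower (background 18.3% and 19.8%). Of 32 male-biased genes 31 were lower there and 1 higher, the glutathione transferase Gstp2 at 0.33 (SE 0.11). In DKO livers 4 female-biased and 4 male-biased genes did not pass, among them Gstp2 at 0.17 (SE 0.14). The difference of effects was lower for 8 female-biased genes and higher for 0, and higher for 13 male-biased genes and lower for 0. Hsd3b5, a male-typical steroid dehydrogenase, fell by 5.62 (SE 0.11) in fed liver and fell by 2.81 (SE 0.23) in fasted Ppara-null liver, a difference of effects of 2.82 (SE 0.29, adjusted p = 9.17e-06). Fasting alone lowered it in WT liver, where it fell by 3.20 (SE 0.14). Mup7 fell by 7.10 in fed liver, with a difference of effects of 2.47 (SE 0.49), and Mup20 fell by 5.25, with one of 1.95 (SE 0.32).

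Of the stress response genes, 2 were higher and 3 lower in fed livers, and 4 differences of effects were higher and 0 lower. Ddit3 was at -0.063 (SE 0.11) in fed liver, a difference of effects of 2.41 (SE 0.51, adjusted p = 0.00872), and Trib3 had one of 1.98 (SE 0.43). Nupr1, a chromatin protein induced by stress, rose by 2.97 (SE 0.29) in DKO livers, with a difference of effects of 2.71 (SE 0.35). It did not pass the filter on low levels in fed liver alone and has no tested value there. Cyp26a1, which degrades retinoic acid, rose by 2.80 (SE 0.24) in DKO livers, with one of 2.16 (SE 0.40). Susd4, a complement regulator, and Tsku, a secreted protein of liver, were at -0.34 (SE 0.21) and 0.32 (SE 0.35) in DKO livers and fell in fed livers, with differences of effects of 2.31 (SE 0.30) and 2.30 (SE 0.52).

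**Figure D5:**
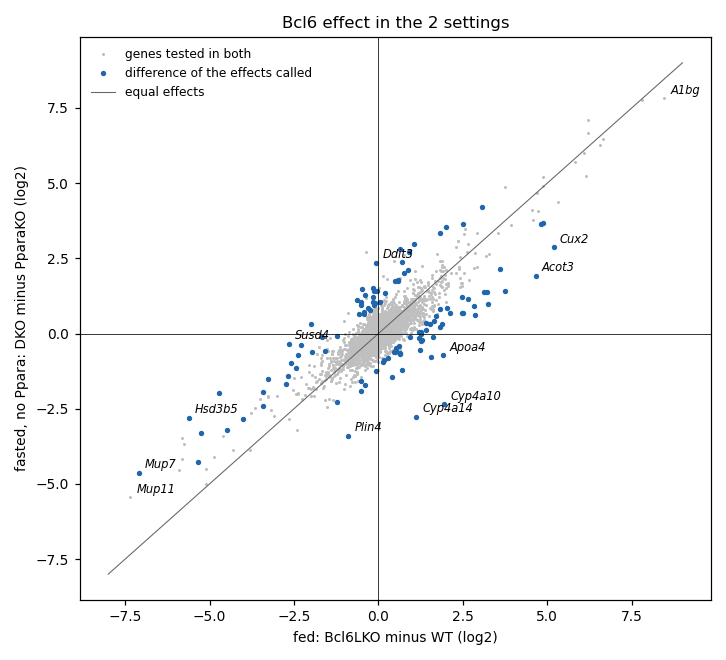
Effect of Bcl6 loss in fed liver (horizontal axis, Bcl6LKO minus WT) against that in fasted Ppara-null liver (vertical axis, DKO minus PparaKO), both as log2 differences. Grey points are genes tested in both, blue points those with a called difference of effects, and the diagonal marks equal effects. Cyp4a10 lies at 1.94 on the horizontal and -2.35 on the vertical axis.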

How the data were processed

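Total RNA of mouse liver was sequenced from stranded libraries depleted of ribosomal RNA. The authors aligned reads to mm10 with STAR, counted exon reads per gene with HOMER and normalised with DESeq2. The deposited values are on a log2 scale, in 4 tables of 8 libraries scaled separately, and from the values they resemble a regularised logarithm, which no source used here states. The tables also hold the authors' log2 fold changes and p-values, which were not used. Since no counts were used, depth per library is unknown. No column of per-sample values was left over (0 unused), and 4 fasted Bcl6LKO samples were not analysed here.

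Genes listed at 0 or with a mean under 4 over the 16 fasted columns were left out. Values were centred on the WT mean of their table, each WT library entered once, and the 12 libraries were fitted in limma 3.58.1 (R 4.3.3) with Benjamini-Hochberg adjustment over all genes tested. The difference of effects was fitted with the fed libraries added. The fit of DKO against PparaKO was tested on simulated data in which the tables differed by a shift alone. That test could not show how the difference in scale affects the fit. Alternatives were other filters, normalizations, bridges and samples, and each library left out. Positions and promoters come from RefSeq GRCm38.p6, matched by symbol for 24314 genes, with the first window of a symbol used. The members and the 37 gene lists were chosen with earlier results of these data known.

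Named genes were Bcl6 and the PPARs, the 15 largest differences per direction among called genes without overlap, the qPCR panel, up to 4 members per list with the smallest adjusted p, the 10 largest differences of effects per direction, and markers. Hspa5, Herpud1, Cerk, Il1rap and Gstp2 were chosen after their values were seen. Some genes that the rule names are not reported here.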

Additional observations from a re-analysis of the deposited data

Results flagged for a closer look

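A single library stood far from the other 3 of its group in 12 of 314 groups examined, and chance gives about 1 in 20. Values are log2 levels minus the WT mean. In PparaKO livers these were Cyp3a44 in replicate 2 (0.18), Cyp4a12a in replicate 4 (-1.89), Lss in replicate 4 (0.22), Fst in replicate 3 (1.34), Rxra in replicate 2 (-0.17) and Lyve1 in replicate 1 (0.012). In DKO livers they were Gm2083 (-1.17) and Mup17 (-0.43) in replicate 1, and Acss3 (-0.45), Aldh3a2 (-1.57), Slc10a1 (-1.18) and Alas2 (-1.27) in replicate 4.

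The effect of Bcl6 loss differed between fasted Ppara-null and fed liver by a direct test, and the 10 genes with the largest difference in each direction, chosen by that value, are given here. The effect was higher in the former for Hsd3b5 (2.82), Serpina4-ps1 (2.74), Nupr1 (2.71), Mup7 (2.47), Ddit3 (2.41), Susd4 (2.31), Tsku (2.30), Cyp26a1 (2.16), Trib3 (1.98) and Mup20 (1.95). It was lower for Cyp4a10 (-4.29), Cyp4a14 (-3.88), Pnpla3 (-2.76), Acot3 (-2.74), Apoa4 (-2.65), Plin4 (-2.50), Prom1 (-2.34), Cux2 (-2.32), Vnn1 (-2.32) and Mt2 (-2.27). For Mt2 the adjusted p was 0.0196, and 0.0515 with scales matched.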

How the results depend on the processing

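No named difference that passed the test, in the comparison reported or under the alternative, changed direction under any alternative run. Of those that passed in neither, DKO minus PparaKO changed sign under at least 1 alternative for Acadvl, Acot1, Ehhadh, Hadh, Pparg and Tsku (Acot1 with equal totals), and the difference of effects for members of the qPCR panel including Acot1 and Acot2. For DKO against PparaKO, a mean of at least 6 gave 150 genes higher with a fold over 2, and a tight bridge (WT shift within 0.25 of its median) gave 108 higher and 117 lower, in both cases from fewer genes tested. At the adjusted p, WT columns as separate samples gave 802 higher and 908 lower, and equal totals 1009 higher and 2956 lower, with a median of all differences of -0.094. For the difference of effects, a mean of at least 6 gave 41 higher, equal totals gave 99 higher and 46 lower with a fold over 2 and 1198 higher and 188 lower at the adjusted p with a median of 0.117, and scales matched (added after the data were seen) gave 38 higher. The cause was not tested.

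With each library left out in turn, DKO against PparaKO gave 217 to 236 genes higher and 162 to 192 lower with a fold over 2, and 1242 to 1494 higher and 1459 to 1769 lower at the adjusted p. The difference of effects gave 49 to 78 higher and 46 to 84 lower, and 161 to 481 higher and 197 to 432 lower at the adjusted p. Of the latter, 481 higher were found without DKO replicate 1, 185 without PparaKO replicate 4, 172 and 161 without fed Bcl6LKO replicates 1 and 4, and 191 and 171 without fed WT replicates 3 and 4, and 197 lower without fed Bcl6LKO replicate 4. With the replicate number as a block, 228 were higher and 173 lower with a fold over 2, and for the difference of effects 65 and 63. Same-numbered DKO and PparaKO libraries correlated at 0.463, -0.221, -0.041 and 0.070. The 0.463 of replicate 1 was the largest among all pairs of a DKO and a PparaKO library. These values do not settle whether the numbers share a pairing, and the main fit assumed none.

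The bridge rests on 4 WT libraries, low levels are compressed, depth is unknown, and DKO mice carry the floxed and Cre alleles that the PparaKO labels do not name.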
